A study of Mus musculus with 16 samples.

Results

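The genes described are 36 genes of the GABA synapse and of inhibitory interneurons, listed by name: enzymes and transporters that make, package, take up and break down GABA, GABA receptor subunits, their postsynaptic partners, chloride transporters, and marker genes of interneuron classes. Each gene is represented by the probe set that carries its symbol alone and has the highest mean over 16 arrays. Of the 36 genes, 35 had such a probe set, and all 35 passed the filter on low values (over 4 log2 on at least 4 arrays), among 11465 genes tested in all. Gabbr2, which encodes the other GABA-B receptor subunit, was not analysed here. The 35 genes have 80 probe sets, of which 62 passed the filter.

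Hippocampal RNA of single male mice, 12 months old, was measured on Affymetrix mouse arrays, with 4 mice and 4 arrays in each of 4 groups. Control mice were an untreated backcross of the SAMP8 line to CD-1 that is 50% SAMP8 and keeps its memory at this age. SAMP8 is a senescence-accelerated line whose mice, per the labels, have intact memory at 4 months and remember poorly at 12 months. The other 3 groups were all SAMP8 mice: untreated, given a Random antisense oligonucleotide into a vein, or given an antisense oligonucleotide against AβPP, the amyloid precursor protein, by the same route. Controls therefore differ from SAMP8 in genetic background as well as in memory, and no Control mice received an oligonucleotide. Values are deposited log2 expression levels, and a difference of 1 is a factor of 2.

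GABA is the main inhibitory transmitter of the hippocampus. It is made from glutamate, packed into vesicles by a dedicated transporter and released onto GABA-A receptors, which are chloride channels, and onto GABA-B receptors, which act through G proteins. Hippocampal interneurons are a minority of neurons and fall into classes recognised by parvalbumin, somatostatin, VIP, cholecystokinin, neuropeptide Y and other markers. In whole tissue, fewer interneurons and less RNA per interneuron cannot be told apart.

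On 2 arrays most expressed genes lay away from the rest: Control 4 and AβPP antisense 4 had median correlations of 0.922 and 0.905 with the other arrays, against 0.982 as the median over all pairs. Control 4 also had a leukocyte marker score of 5.41 log2 above the mean of the arrays (7 of 12 listed markers measured), where the other 15 arrays lay between -1.01 and 0.32, and a pan-neuronal score of -0.56. Hippocampal excitatory markers (12 of 14 measured) had a summed level between 12.46 and 14.16 log2 over the 4 groups, in which the brightest genes weigh most. Mean levels of the single markers ran from 3.66 log2 for Tdo2, under the filter value, to 12.28 for Nptx1. The part of these markers in the results was not tested.

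No gene of the GABA list, read by its brightest probe set, passed the test in any comparison. Other probe sets of Gabra3 and Gabrb2, described further on, passed between AβPP antisense and SAMP8. The limma test with Benjamini-Hochberg adjustment called 0 of 35 members between SAMP8 and Control, where 0.36% of all probe sets passed, and 0 of 35 between AβPP antisense and Random antisense, where 0.0837% passed. It called 0 of 35 between Random antisense and SAMP8, where the share over all probe sets was 0%, and 0 of 35 between AβPP antisense and SAMP8, where it was 0.289%. A moderated F test over the 4 groups called 0 of 35 against 0.849% of all probe sets. At an unadjusted p under 0.05 the same fit gave 0, 0, 1 and 1 members in those 4 comparisons, beside 4.38%, 12.3%, 1.12% and 14.7% of probe sets. All these shares take in dimmer probe sets, while each member is read by its brightest. At 1 probe set per gene the unadjusted shares were 3.77%, 8.84%, 1.04% and 10%. Of 11465 genes read that way, 14 passed upward and 12 downward after adjustment for SAMP8 minus Control. For AβPP antisense, 1 and 2 passed against Random antisense, and 2 and 9 against SAMP8. In simulated data of the same size a change of 1 log2 was recovered for between 47.5% and 55.5% of changed probe sets, and a change of 2 log2 for between 89% and 93.5%. The changed probe sets were drawn from all tested probe sets, and by construction they differed by exactly the added change. These shares therefore do not measure how often a change in the members would be found.

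**Figure D1:**
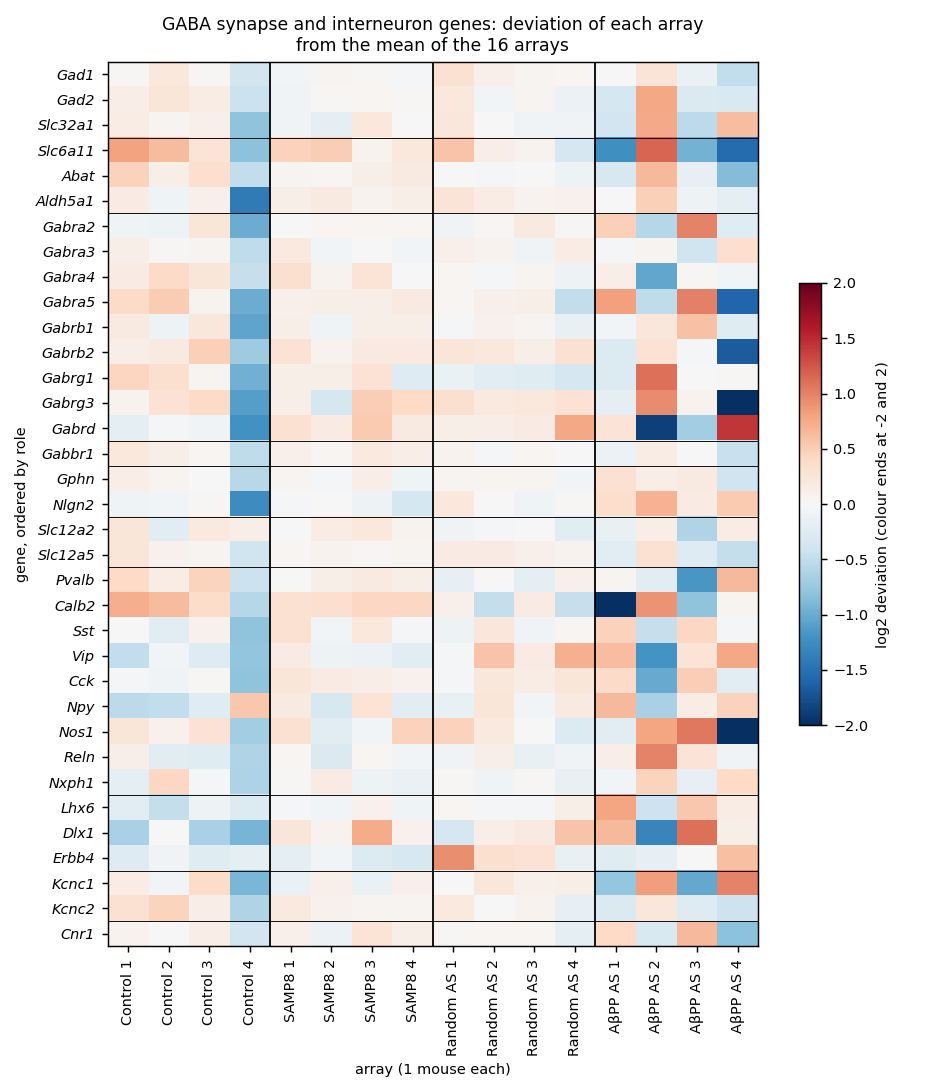
Log2 level of each of the 35 genes on each of the 16 arrays, shown as the deviation from that gene's mean over all arrays, with genes in rows by role and arrays in columns by group (AS, antisense). Control 4 is below the gene's mean for most genes, and the AβPP antisense arrays deviate in both directions while the SAMP8 and Random antisense arrays lie closer to it, with median standard deviations of 0.57 under AβPP antisense, 0.12 in SAMP8 and 0.11 under Random antisense.

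The brightest probe sets of the genes that make and package GABA were not called in any comparison, while other probe sets of Gad1 and Gad2, described further on, were lower in mean under AβPP antisense. Gad1 and Gad2 encode the enzymes that make GABA from glutamate, and Slc32a1 encodes the vesicular GABA transporter. Gad1 read 13.54, 13.72, 13.53 and 13.14 log2 on the Control arrays and 13.45, 13.57, 13.54 and 13.47 in SAMP8. It read 13.81, 13.61, 13.57 and 13.55 under Random antisense and 13.50, 13.76, 13.38 and 13.01 under AβPP antisense. The groups overlapped, and the lowest values were those of Control 4 and AβPP antisense 4. SAMP8 minus Control was 0.03 ± 0.15 log2 (SE, n = 4 and 4) with a 95% interval from -0.30 to 0.36, and AβPP antisense minus Random antisense was -0.22 ± 0.15, from -0.55 to 0.11 (limma adjusted p 0.999 and 0.592).

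Gad2 read 10.28, 10.39, 10.31 and 9.72 log2 in Control against 10.08, 10.18, 10.19 and 10.17 in SAMP8. It read 10.36, 10.10, 10.21 and 10.04 under Random antisense against 9.81, 10.92, 9.86 and 9.85 under AβPP antisense. Control 4 was the lowest of 16 arrays and AβPP antisense 2 the highest, with the other 3 AβPP antisense arrays below every Random antisense array. The differences were -0.02 ± 0.22 and -0.07 ± 0.22 log2. With Control 4 left out, the remaining 3 Control arrays all lay above the 4 SAMP8 arrays for Gad2, and the difference was -0.17 ± 0.21 with a limma adjusted p of 1.

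Slc32a1 read 9.37, 9.28, 9.33 and 8.42 log2 in Control and between 9.03 and 9.43 in SAMP8. Under Random antisense it read between 9.15 and 9.46, and under AβPP antisense 8.84, 9.99, 8.70 and 9.84. AβPP antisense arrays lay on both sides of the Random antisense range, and the difference was 0.09 ± 0.28 log2 (95% interval from -0.51 to 0.68).

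Among genes of uptake and breakdown, Slc6a11 encodes the GABA transporter GAT-3, found mainly on astrocytes. It had the largest standard deviation of the 35 genes over the 16 arrays, 0.77 log2. It read 10.20, 10.02, 9.66 and 8.57 in Control, from 9.47 to 9.89 in SAMP8, from 9.06 to 9.97 under Random antisense and 8.16, 10.55, 8.44 and 7.85 under AβPP antisense. AβPP antisense 1, 3 and 4 lay below all other arrays and AβPP antisense 2 above all of them. AβPP antisense was -0.75 ± 0.48 log2 from Random antisense and -0.95 ± 0.48 from SAMP8 (limma adjusted p 0.555 and 0.375). The first was -1.35 without AβPP antisense 2 and -0.45 without AβPP antisense 4.

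Abat encodes GABA transaminase, which breaks GABA down, and Aldh5a1 the succinic semialdehyde dehydrogenase of the next step. All 4 Random antisense values of Abat, from 11.02 to 11.13 log2, lay just below the 4 SAMP8 values, from 11.16 to 11.31. Aldh5a1 lay between 9.80 and 10.47 on every array other than Control 4, which read 8.58. Its SAMP8 minus Control difference of 0.43 therefore rests on that array.

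The GABA-A receptor subunits gave 9 positive differences of 9 between SAMP8 and Control, from 0.08 to 0.66 log2, none called, beside 60.2% positive over all genes. Without Control 4, 7 of the 9 were negative and 2 positive, from -0.20 for Gabrg1 to 0.37 for Gabrd. The α and β subunits Gabra2, Gabra3, Gabra4, Gabra5, Gabrb1 and Gabrb2 and the γ subunits Gabrg1 and Gabrg3 build the channel in different combinations. Gabrd encodes the δ subunit, found in receptors outside the synapse and typical of dentate granule cells. Gabrd read 8.75, 8.90, 8.86 and 7.71 log2 in Control and 9.22, 9.09, 9.44 and 9.10 in SAMP8, so that the groups did not overlap. The difference was 0.66 ± 0.51 (limma adjusted p 0.999, exact permutation p 0.0286, which is the smallest that 70 assignments can give). Without Control 4 it was 0.37 ± 0.53, still without overlap.

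Under AβPP antisense Gabrd read 9.20, 7.05, 8.22 and 10.35 log2, a spread of 1.41 (SD) that took in the lowest and the highest of the 16 arrays, against 9.04, 9.06, 9.08 and 9.70 under Random antisense. Hippocampal excitatory markers, which include dentate granule cell genes, had scores of 0.61, -1.15, 0.62 and -1.08 on AβPP antisense arrays 1 to 4. On arrays 1 to 3 the lowest Gabrd value fell on the array with the lowest score, while array 4 combined a low score with the highest Gabrd value. Their part in the Gabrd values was not tested.

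Gabrb2, a subunit of the most common GABA-A receptors, read 12.59, 13.16, 12.83 and 11.20 log2 under AβPP antisense against 13.10, 13.08, 12.99 and 13.17 under Random antisense. Array 4 was far below the others and arrays 1 and 3 were below the Random antisense range. The difference of -0.64 ± 0.33 had the lowest adjusted p of the members in that comparison (limma, 0.457). It was -0.23 without AβPP antisense 4 and -0.88 without AβPP antisense 2. Gabrg1 differed by 0.45 ± 0.30 in the same comparison (limma adjusted p 0.578), with values from 8.71 to 10.09, the highest on array 2, against 8.65 to 8.85, and by 0.15 without array 2.

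Gabra4 read 11.49, 10.33, 11.38 and 11.31 log2 under AβPP antisense, from 11.27 to 11.42 under Random antisense and from 11.35 to 11.68 in SAMP8. Only AβPP antisense 2 stood apart, and AβPP antisense minus SAMP8 was -0.40 (limma adjusted p 0.436). Gabra5, enriched in hippocampus, read 11.53, 10.21, 11.73 and 9.13 under AβPP antisense, where its mean of 10.65 nearly equalled the 10.66 of Random antisense. Gabra3, by its brightest probe set, was among the genes of smallest spread, with a standard deviation of 0.20 log2 over 16 arrays. Another of its probe sets, described further on, was lower in mean under AβPP antisense. The remaining subunits, Gabra2, Gabrb1 and Gabrg3, had AβPP antisense ranges of 10.48 to 12.04, 11.20 to 12.02 and 4.92 to 7.99.

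The brightest probe sets of the GABA-B receptor subunit gene Gabbr1 and of Gphn, which encodes the gephyrin scaffold under inhibitory synapses, also varied little. Their standard deviations were 0.20 and 0.21 log2 over 16 arrays. Another probe set of Gabbr1 read 9.70, 9.03, 10.56 and 8.79 under AβPP antisense against 10.62 to 10.91 under Random antisense. Another of Gphn read 10.14, 9.33, 9.63 and 7.77 against 9.36 to 9.57. Nlgn2 encodes neuroligin-2, an adhesion protein of inhibitory synapses, and was the member with the smallest p in the F test (limma p 0.0289, adjusted 0.296). It read 10.41, 10.76, 10.22 and 10.59 log2 under AβPP antisense and 10.27, 10.07, 9.97 and 10.08 under Random antisense. Untreated SAMP8 mice read 10.03, 10.05, 9.96 and 9.71, and Control mice 9.97, 10.01, 10.09 and 8.80. All 4 AβPP antisense values lay above all 4 SAMP8 values, while the lowest of them lay just below the highest Random antisense value.

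Nlgn2 was 0.56 ± 0.23 log2 higher in mean under AβPP antisense than in untreated SAMP8 (95% interval from 0.06 to 1.06, limma p 0.0299, adjusted 0.285, exact permutation p 0.0286). Against Random antisense the difference was 0.40 ± 0.23, from -0.10 to 0.90 (limma adjusted p 0.513). The adjusted p against SAMP8 ran from 0.059 to 0.517 over the alternative settings, and it was 0.0601 without Control 4, an array of neither group that adds to the shared spread. Nlgn2 was the 1 member of 35 whose AβPP antisense and SAMP8 arrays did not overlap upward, beside 4.05% of all genes, and 0 did so downward, beside 2.88%.

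The chloride transporters set the direction of GABA-A currents: Slc12a2 encodes NKCC1, which brings chloride into the cell, and Slc12a5 encodes KCC2, which removes it from neurons. Slc12a5 read 13.20, 13.24, 13.18 and 13.21 log2 in SAMP8 and 13.33, 13.32, 13.26 and 13.24 under Random antisense. The Random antisense mean was higher by 0.08 log2, with the lowest Random antisense and highest SAMP8 values equal to 2 decimals but not overlapping. Under AβPP antisense it read 12.94, 13.47, 12.90 and 12.69, which was -0.29 ± 0.16 from Random antisense (limma adjusted p 0.483), with array 2 again on the other side and a range from -0.44 without array 2 to -0.18 without array 4. Slc12a2 read 11.29, 11.31, 11.36 and 11.13 under Random antisense against 11.36, 11.51, 11.57 and 11.42 in SAMP8, where the values again met at 2 decimals without overlap. The difference was -0.19 log2 (limma adjusted p 1).

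**Figure D2:**
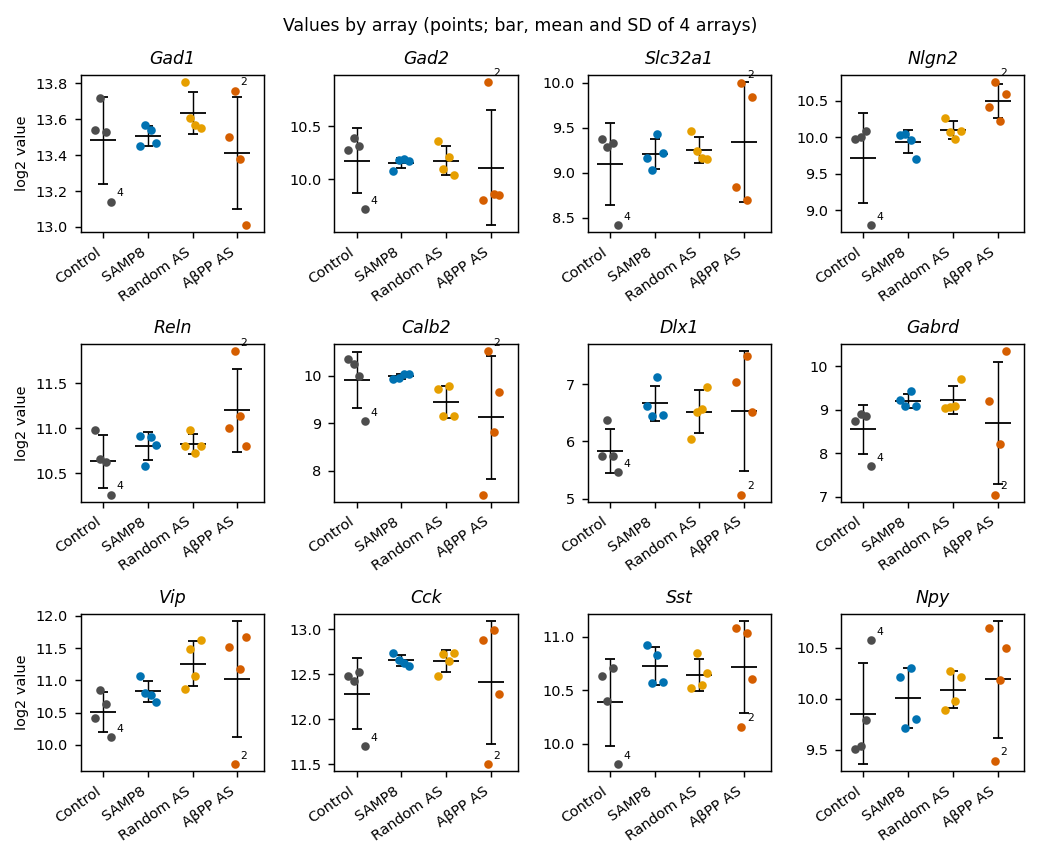
Log2 level on each array (1 point per mouse, bars for the mean and SD of 4 arrays) for 12 of the genes in the 4 groups (AS, antisense). The point labelled 4 is Control 4 and the point labelled 2 is AβPP antisense 2, which for Gad2 is the highest of 16 arrays at 10.92 and for Dlx1 the lowest at 5.07.

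Markers of interneuron classes are described next, beginning with the 4 neuropeptide genes Sst, Vip, Cck and Npy. Their promoters are shown because those of such neuropeptide genes are textbook examples of cyclic AMP response. Each of the 4 had its largest spread under AβPP antisense, but so did 27 members in all and 57.5% of all genes. That spread therefore does not set the 4 apart, and for Sst it was 0.43 (SD) against 0.41 in Control. A link between the sequences and the spread was not tested. The sequences are the 100 bases before each annotated start in RefSeq (build GRCm38.p6), written 5′ to 3′ on the gene's strand. Capitals mark matches on either strand to CGTCA, the core of the cyclic AMP response element, and the whole palindrome TGACGTCA where it is present. The regions are chr16:23890845-23890944 on the minus strand for Sst, chr10:5639118-5639217 on the plus strand for Vip, chr9:121495695-121495794 on the minus strand for Cck and chr6:49822610-49822709 on the plus strand for Npy.
Sst: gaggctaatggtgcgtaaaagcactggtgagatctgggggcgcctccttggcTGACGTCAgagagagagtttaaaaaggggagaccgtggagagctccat
Vip: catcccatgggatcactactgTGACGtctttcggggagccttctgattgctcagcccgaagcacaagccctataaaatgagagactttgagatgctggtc
Cck: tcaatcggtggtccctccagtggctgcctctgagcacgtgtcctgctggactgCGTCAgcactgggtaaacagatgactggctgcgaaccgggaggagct
Npy: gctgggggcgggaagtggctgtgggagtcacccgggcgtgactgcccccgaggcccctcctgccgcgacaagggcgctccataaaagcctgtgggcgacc
CGTCA lay in 10.5% of all 32851 RefSeq promoters over the same 100 bases, and in the shown bases it was in Sst, Vip and Cck and not in Npy. Counted back from the base before the start as 1, the first base of each match was at 48 and 45 for the overlapping pair in Sst, at 79 in Vip and at 47 in Cck. Over 250 bases before the start, CGTCA was in 17.8% of all promoters. It was in 7 of the 32 member genes with a promoter in the table: Sst, Vip, Cck, Aldh5a1, Gad2, Kcnc1 and Nos1. A gene counted if any of its promoters matched (45 promoters for the 32 genes), so the 2 shares are not alike. TGACGTCA, which holds CGTCA on both strands, was in 1.55% of all promoters and among the members in Sst alone. A match describes the letters and does not show that a factor binds.

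None of the 4 neuropeptide genes was called in any comparison. Sst, which encodes somatostatin, read 10.63, 10.40, 10.71 and 9.81 log2 in Control and 10.92, 10.57, 10.83 and 10.58 in SAMP8. Control 4 was the lowest of 16 arrays. The difference was 0.34 ± 0.22 (95% interval from -0.13 to 0.80, limma adjusted p 0.999), and 0.14 ± 0.20 without Control 4. Under AβPP antisense Sst read 11.08, 10.16, 11.03 and 10.60, with a mean 0.07 ± 0.22 from that of Random antisense.

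Vip, which encodes vasoactive intestinal peptide of interneurons that mostly target other interneurons, read 10.41, 10.85, 10.64 and 10.12 log2 in Control, 11.06, 10.80, 10.78 and 10.67 in SAMP8 and 10.87, 11.48, 11.06 and 11.62 under Random antisense. Random antisense minus SAMP8 was 0.43 ± 0.34 (limma adjusted p 1, exact permutation p 0.0571). Under AβPP antisense Vip read 11.52, 9.70, 11.18 and 11.68, where array 2 was the lowest of 16 and array 4 the highest.

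Cck encodes cholecystokinin, which marks a class of basket cells and is also made by pyramidal cells. It read 12.48, 12.43, 12.53 and 11.70 log2 in Control, all below the 12.74, 12.66, 12.63 and 12.59 of SAMP8. The difference was 0.37 ± 0.27 (limma adjusted p 0.999, exact permutation p 0.0286), and 0.17 ± 0.26 without Control 4. Under AβPP antisense Cck read 12.88, 11.50, 12.99 and 12.28.

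Npy, which encodes neuropeptide Y, was the 1 gene for which Control 4 lay above the SAMP8 range. It read 9.51, 9.54, 9.79 and 10.57 log2 in Control, from 9.71 to 10.30 in SAMP8, from 9.89 to 10.27 under Random antisense and 10.69, 9.39, 10.18 and 10.50 under AβPP antisense. The lowest and the highest of the 16 values were both AβPP antisense arrays.

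Of the calcium-binding proteins, Pvalb encodes parvalbumin of fast-spiking interneurons. It read 11.72, 11.47, 11.77 and 10.89 log2 in Control, from 11.33 to 11.50 in SAMP8, from 11.13 to 11.42 under Random antisense and 11.38, 11.10, 10.16 and 11.97 under AβPP antisense. Its SAMP8 minus Control difference was -0.03 ± 0.29, with Control arrays on both sides of the SAMP8 range. The fast-spiking potassium channel genes Kcnc1 and Kcnc2 differed by 0.10 and 0.03 in the same comparison. The brightest probe set of Kcnc1 read 10.76, 12.36, 10.51 and 12.52 under AβPP antisense against 11.53 to 11.76 under Random antisense. It lay outside that range on all 4 arrays and on both sides of it. Other tested probe sets of Kcnc1 did not share this order. Another was lowest of all arrays on AβPP antisense 2, with array 3 at 9.18, inside its Random antisense range of 9.05 to 9.39. A further probe set read 8.77, 8.61, 7.34 and 7.26 under AβPP antisense. It also lay outside its Random antisense range on all 4 arrays, but was lowest on array 4.

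Calb2 encodes calretinin, found in hippocampal interneurons and mossy cells and in midline thalamus. It read 9.93, 9.96, 10.04 and 10.04 log2 in SAMP8 and 9.72, 9.15, 9.78 and 9.16 under Random antisense, without overlap, a difference of -0.54 ± 0.47 (limma adjusted p 1, exact permutation p 0.0286). A list of thalamus markers, without Calb2 and with all 13 others measured, had scores of 0.37, 0.34, 0.27 and 0.37 in SAMP8 and 0.13, -0.42, 0.10 and -0.47 under Random antisense, and the arrays Random antisense 2 and 4 were lowest of these 8 for both. Under AβPP antisense Calb2 read 7.50, 10.52, 8.81 and 9.67. The thalamus scores there were -1.72, 0.04, -1.52 and 0.56, so that the arrays with the lowest Calb2 also had the lowest scores. Their part in the Calb2 values was not tested.

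Reln encodes reelin of the neurogliaform and Cajal-Retzius cells. It read 11.00, 11.86, 11.14 and 10.80 log2 under AβPP antisense against 10.80, 10.98, 10.72 and 10.80 under Random antisense, with array 2 highest. The difference was 0.38 ± 0.20 (95% interval from -0.05 to 0.80, limma adjusted p 0.467), and 0.16 without AβPP antisense 2. Nos1, which encodes neuronal nitric oxide synthase, had a standard deviation of 0.76 log2 over 16 arrays, most of it from 8.12, 9.14, 9.40 and 5.98 under AβPP antisense. Another tested probe set of Nos1 read 7.81, 8.34, 8.78 and 7.73 on those 4 arrays. The brightest probe set of Nxph1, a neurexin ligand of interneurons, kept within 8.90 to 9.96 on all arrays. Another, with a Random antisense mean of 8.97, read 6.73 on AβPP antisense 4. A further probe set, with a Random antisense mean of 6.41, read 8.38 on that array.

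Dlx1 and Lhx6 encode transcription factors of interneuron development, and Erbb4 the neuregulin receptor of interneurons. Dlx1 had the largest SAMP8 minus Control difference of the list, 0.83 ± 0.40 log2 (95% interval from -0.02 to 1.69, limma adjusted p 0.999, exact permutation p 0.0286). It read 5.74, 6.37, 5.74 and 5.46 in Control and 6.62, 6.45, 7.12 and 6.47 in SAMP8. The groups did not overlap, the highest Control value being 6.37 and the lowest SAMP8 value 6.45, and the difference was 0.71 ± 0.44 without Control 4. Striatum markers (9 of 13 measured) were positive for 9 of 9 in SAMP8 minus Control (median 0.55), with scores of -0.24, 0.12, -0.14 and -0.78 in Control and 0.06, -0.15, 1.41 and 0.04 in SAMP8, where array 3 was also the highest for Dlx1. Their part in the Dlx1 difference was not tested. Under AβPP antisense Dlx1 read 7.04, 5.07, 7.49 and 6.51.

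Lhx6 read 5.33, 5.06, 5.44 and 5.26 log2 in Control and 5.50, 5.48, 5.63 and 5.46 in SAMP8, a difference of 0.24 with or without Control 4. Under AβPP antisense it read 6.33, 5.13, 6.08 and 5.69, with array 2 below and the other 3 above the Random antisense range. Erbb4 was near the filter, over 4 log2 on 7 arrays of 16. It read 5.06, 4.46, 4.43 and 3.99 under Random antisense against 3.96, 4.08, 3.87 and 3.81 in SAMP8, a difference of 0.55 ± 0.21 (limma p 0.0176, adjusted 1). The highest value came from Random antisense 1, whose labels conflict on treatment, and the difference was 0.36 without it and 0.13 with it counted as untreated SAMP8. Cnr1, which encodes the cannabinoid receptor on cholecystokinin terminals, had means of 11.93, 12.07, 11.95 and 11.95 in the 4 groups.

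**Figure D3:**
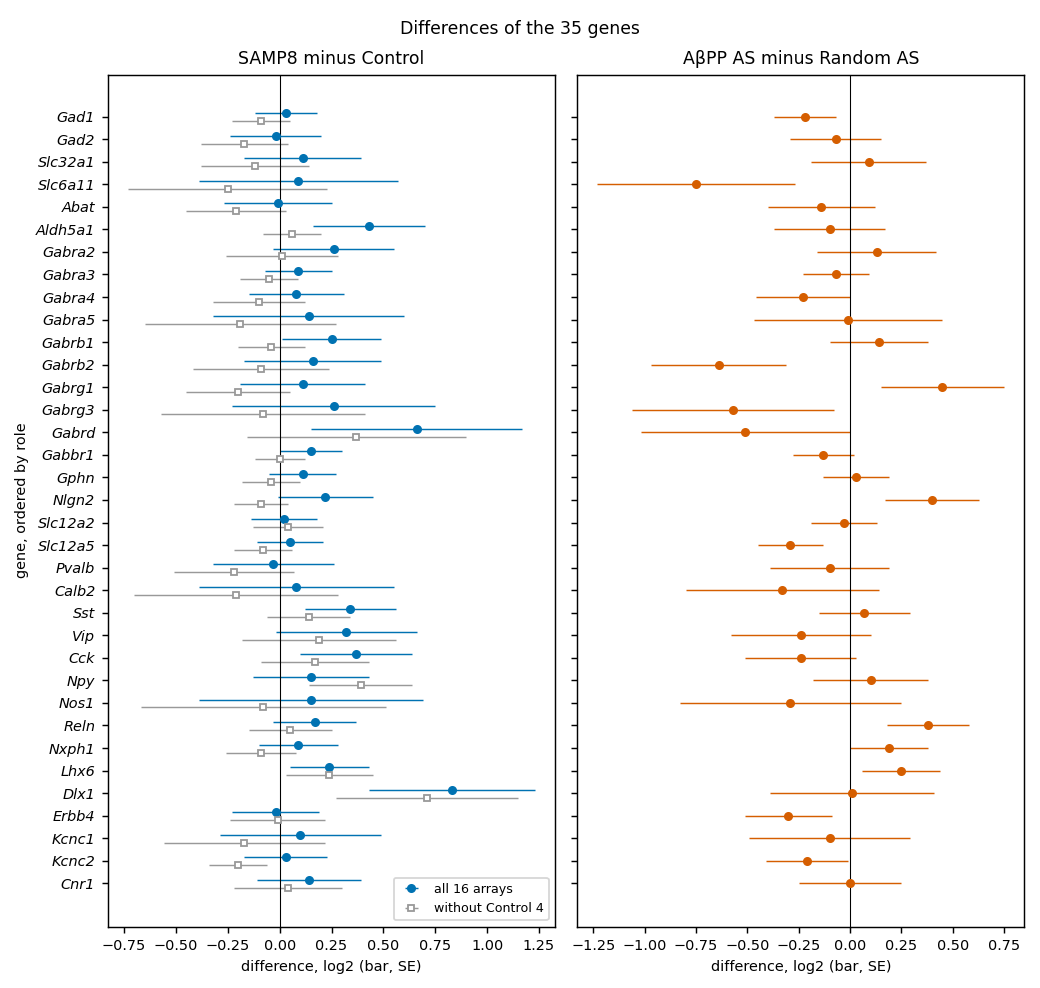
Difference of group means in log2 for each of the 35 genes, with bars of 1 standard error: SAMP8 minus Control with all 16 arrays and without Control 4, and AβPP antisense minus Random antisense (AS, antisense). With all arrays 31 of 35 SAMP8 minus Control differences are above 0, and 12 of 35 are without Control 4.

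Between SAMP8 and Control, which asks what sets the memory-impaired line apart, 31 of 35 members had a positive difference and 4 a negative one, with a median of 0.14 and a range from -0.03 to 0.83 log2. Over all genes 60.2% were positive, with a median of 0.04. Left without Control 4, the members divided into 12 positive and 23 negative, with a median of -0.08, beside 51.4% positive and a median of 0 over all genes. Control 4 lay below the SAMP8 range for 32 of 35 members (91.4%), where 54.2% of all genes did so, above it for Npy and inside it for Slc12a2 and Erbb4.

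Gabrd, Cck, Lhx6 and Dlx1 were the 4 members whose SAMP8 arrays all lay above the Control arrays, where 2.99% of all genes did so. The same 4 did so without Control 4, where the share over all genes was 4.75%. None was lower without overlap with all 16 arrays, beside 1.53% of all genes, and Gad2 was without Control 4, beside 4.62%. The count of positive members moved with Control 4, which also had the leukocyte and pan-neuronal scores given above, and their part in it was not tested.

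Between AβPP antisense and Random antisense, which asks what the AβPP sequence adds to giving an oligonucleotide, 13 of 35 differences were positive and 22 negative. Their median was -0.10 with a range from -0.75 to 0.45 log2, while 56.8% of all genes were positive, with a median of 0.04. No member separated the 4 AβPP antisense from the 4 Random antisense arrays in either direction, beside 4.69% of genes upward and 2.26% downward. Of the 35 members, 18 (51.4%) had opposite signs in this comparison and in SAMP8 minus Control, which share no arrays, beside 53.2% of all genes.

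Without Control 4 and AβPP antisense 4 together, the AβPP antisense minus Random antisense differences were 16 positive and 19 negative, with a median of -0.01. Limma called 0 of 35 there too, with 5 members at an unadjusted p under 0.05 beside 15.1% of all genes. Gabrd then differed by -1.06 ± 0.36 (limma adjusted p 0.172), Reln by 0.51 ± 0.18 (0.184), Nlgn2 by 0.37 ± 0.13 (0.180), Gphn by 0.18 ± 0.08 (0.275) and Erbb4 by -0.48 ± 0.19 (0.215). Gphn and Reln separated the groups upward on those arrays, beside 7.66% of all genes.

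Random antisense and untreated SAMP8 share strain and differ by the oligonucleotide. Differences were positive for 18 members and negative for 17, with a median of 0.01 log2 beside -0.01 over all genes. Slc12a5 was higher without overlap (4.21% of all genes), and Abat, Slc12a2 and Calb2 lower (4.86%). AβPP antisense minus SAMP8, which shares its arrays with the comparisons above, gave 13 positive and 22 negative members with a median of -0.10. Over all genes 55.2% were positive, with a median of 0.03. The leading members in that comparison were Nlgn2 and Reln (0.40) upward and Slc6a11 and Calb2 (-0.87) downward. Limma adjusted p values for Reln and Calb2 were 0.370 and 0.408.

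The members spread unequally within the groups. The median standard deviation of the 35 members was 0.42 log2 in Control, 0.12 in SAMP8, 0.11 under Random antisense and 0.57 under AβPP antisense, beside 0.28, 0.11, 0.11 and 0.34 over all genes. AβPP antisense had the largest spread of the 4 groups for 27 of 35 members, where this held for 57.5% of all genes. Leaving out Control 4 and AβPP antisense 4 brought the Control median to 0.16, while that of AβPP antisense was 0.59.

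AβPP antisense 2 stood at an end of the range for many members. It was the highest of 16 arrays for 12 (34.3%, beside 13.8% of all genes) and the lowest for 6 (17.1%, beside 8.64%). Its distance from the mean of AβPP antisense 1 and 3 was over 1 log2 for 16 of 35 members, where this held for 9.94% of all genes. The distance was downward for 9 of them: -2.20 for Dlx1, -1.66 for Gabrd, -1.65 for Vip, -1.43 for Cck, -1.42 for Gabra5, -1.29 for Gabra2, -1.11 for Gabra4, -1.07 for Lhx6 and -1.04 for Npy. It was upward for Calb2 (2.37), Slc6a11 (2.25), Kcnc1 (1.73), Gabrg1 (1.24), Slc32a1 (1.22), Gad2 (1.08) and Gabrg3 (1.00). These distances are those of the brightest probe sets. Another probe set of Kcnc1, described above, was lowest of all arrays on AβPP antisense 2.

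Interneuron genes lay on both sides: the vesicular transporter and Gad2 were higher on array 2, and the neuropeptide genes Vip, Cck and Npy were lower. Hippocampal excitatory markers on this array scored -1.15 against 0.61 and 0.62 on arrays 1 and 3, and thalamus markers without Calb2 scored 0.04 against -1.72 and -1.52. Choroid plexus markers (12 of 14 measured) were low on all 3, at -1.82, -1.81 and -1.37, beside -0.31 on array 4 and -0.22 to 1.53 on the 12 arrays of the other groups. The part of these tissue markers in the members' spread was not tested.

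A wider list of 79 other genes of GABA receptors, uptake, chloride transport and interneuron identity had 48 measured genes, and limma called 0 of 48 in each of the 4 comparisons. At an unadjusted p under 0.05 it gave 0 of 48 for SAMP8 minus Control, beside 3.77% of all genes at 1 probe set each. For AβPP antisense minus Random antisense it gave 7 (14.6%), beside 8.84%. It gave 2 (4.17%) for Random antisense minus SAMP8, beside 1.04%, and 7 (14.6%) for AβPP antisense minus SAMP8, beside 10%. The genes named below are those of smallest p in each direction, which are not always those of largest difference. SAMP8 minus Control was positive for 38 and negative for 10 (median 0.10 log2), beside 60.2% positive over all genes (median 0.04). The count of positive members moved with Control 4, and the wider list was not counted without that array. Lamp5, a marker of neurogliaform cells, was at 0.70, Shisa7, a GABA-A receptor partner, at 0.60, Prox1 at -0.75 and Maf at -0.14. AβPP antisense minus Random antisense was positive for 24 and negative for 24, beside 56.8% positive over all genes. The opioid peptide gene Penk (0.92) and the amino acid transporter gene Slc38a3 (0.43) had the smallest p upward, and Satb1 (-0.56, limma adjusted p 0.118), a nuclear factor of interneuron maturation, and Gabarapl1 (-0.60, 0.218), of a family that binds GABA-A receptors and autophagosomes, downward, while Tac2 had a larger difference (-1.77, 0.244). Penk is also abundant in striatum, and striatum markers (9 of 13 measured) were positive for 7 of 9 in this comparison (median 0.25) and negative for 8 of 9 in Random antisense minus SAMP8 (median -0.60). Their part in the Penk values was not tested.

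Random antisense minus SAMP8 was positive for 21 of the 48 and negative for 27, beside 46.6% positive over all genes. Satb1 was at 0.40, Maf at 0.43, Penk at -0.91 and Gabarapl2 at -0.33. AβPP antisense minus SAMP8 was positive for 20 and negative for 28, beside 55.2% positive over all genes. The tachykinin gene Tac2 was at -1.91 (limma adjusted p 0.158) and Gabarapl2 at -0.59 (0.136), while Sox6, a factor of parvalbumin and somatostatin interneurons, was at 0.62 (0.218) and Slc38a3 at 0.43.

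For 7 genes a probe set other than the brightest was over 1 log2 lower under AβPP antisense than under Random antisense. Of the 62 tested probe sets, 27, from 17 genes, were not the brightest of their gene. Between AβPP antisense and Random antisense none of the 35 brightest differed by more than 1 log2 downward, while 7 of the 27 others did (25.9%). Over all genes these shares were 0.515% of the brightest and 8.10% of the 8975 others.

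The other probe set of Gad1 read 9.88, 10.25, 10.51 and 7.18 log2 under AβPP antisense against 10.89, 10.95, 10.85 and 10.76 under Random antisense, without overlap. The difference was -1.41 (limma adjusted p 0.302, exact permutation p 0.0286), while the brightest probe set differed by -0.22. For Slc12a5 it read 7.34, 7.48, 8.34 and 3.94 against 8.86 to 9.10, a difference of -2.23 (limma adjusted p 0.214). The remaining 5 were Gad2 (-1.30), Slc12a2 (-1.22), Gabbr1 (-1.27), Gabrb2 (-1.64) and Gabra3 (-2.27), none called by limma against Random antisense. In that comparison 7 of the 27 (25.9%) had an unadjusted limma p under 0.05, beside 12.3% of all probe sets, the brightest included.

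Against untreated SAMP8, 2 of the 27 passed (7.41%), beside 0.289% of all probe sets, the brightest included. These 2 shares are not alike. Over all genes 9.81% of the other probe sets were over 1 log2 lower in this comparison, against 0.855% of the brightest. The share of passing probe sets among the others alone was not taken. Another probe set of Gabra3 fell to 4.46, 3.60, 5.89 and 1.89 log2 under AβPP antisense from 7.17, 6.40, 7.02 and 6.87 in SAMP8, a difference of -2.90 (limma adjusted p 0.0488). The AβPP antisense mean of that probe set, 3.96, lay under the filter value of 4, so the size of its difference rests partly on values near background. Another probe set of Gabrb2 fell to 6.33, 6.22, 8.21 and 6.35 from 8.71, 8.41, 8.86 and 9.04, a difference of -1.98 (limma adjusted p 0.0351). Both calls were near the threshold: 0 probe sets passed when any 1 of Control 1 to 3, the SAMP8 arrays, the Random antisense arrays, AβPP antisense 1 or AβPP antisense 2 was left out. The count was 3 without Control 4, 4 without AβPP antisense 3 and 2 without AβPP antisense 4. The last 2 were those of Gabra3 and Slc12a2 (limma adjusted p 0.0284 each), while that of Gabrb2 was not called (0.0612).

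Of the 27 other probe sets, 19 were lowest on AβPP antisense 4, beside 36.8% of such probe sets over all genes. The difference between 3′ and 5′ control probe sets was -0.09, 0.02, -0.35 and 1.26 log2 for Gapdh on AβPP antisense 1 to 4, where the 12 arrays of the other groups lay between -0.41 and -0.30. For actin it was 1.60, 1.60, 1.21 and 3.89, against 0.84 to 1.36. AβPP antisense 1, 2 and 4 thus lay outside the range of the other groups and array 3 inside it, and array 3 also had the highest value of the 4 for the other probe sets of Gad1, Gabra3, Gabrb2, Gabbr1 and Slc12a5, but not of Gad2 or Slc12a2. The part of this difference in the values was not tested. Without AβPP antisense 4 the 7 differences from Random antisense were -0.65 for Gad1, -0.57 for Gad2, -0.42 for Slc12a2, -1.02 for Gabbr1, -1.28 for Slc12a5, -1.50 for Gabrb2 and -1.58 for Gabra3. When all tested probe sets of a gene were averaged, Gabra3 was called between AβPP antisense and SAMP8 (-1.46 ± 0.26, limma adjusted p 0.0374), while its brightest probe set read 10.39, 10.46, 10.02 and 10.75 against 10.60, 10.36, 10.40 and 10.36.

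**Figure D4:**
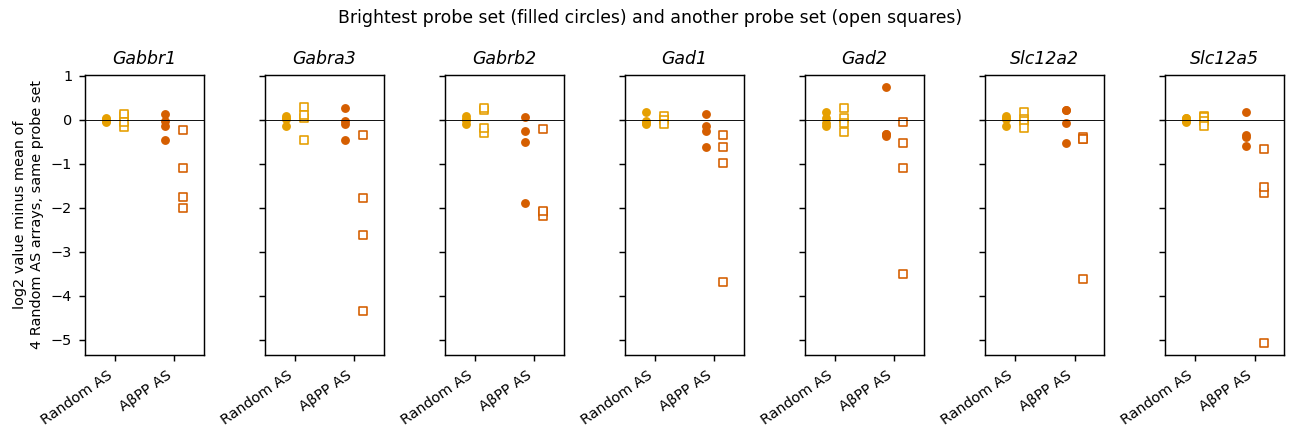
Log2 level relative to the Random antisense mean for the brightest probe set (filled circles) and another probe set (open squares) of 7 genes on the 4 Random antisense and 4 AβPP antisense arrays (AS, antisense). The open squares of the AβPP antisense arrays lie below 0 for all 7 genes in the mean, from -1.22 for Slc12a2 to -2.27 for Gabra3, while the filled circles have means between -0.64 for Gabrb2 and -0.03 for Slc12a2.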

How the data were processed

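The authors deposited log2 expression levels, which the submitters' processing notes credit to GCRMA, a method that corrects background, equalises the arrays by quantiles and summarises each probe set. For its version: not given in the sources used here. Each array took, per the labels' protocols, 4 µg of total RNA from the hippocampus of 1 mouse. Scanned intensities were not used here, so signal over background is known only through the log2 values, and the 4 arrays per group limit the precision. Groups came from the sample titles. Random antisense 1 has a treatment label of none against its title, source and description, and was kept with Random antisense.

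Of 45101 probe sets, 64 Affymetrix controls were left out. Of the remaining 45037, GEO's annotation of the platform names 1 symbol for 34945, several for 932 and none for 9160. The filter required a value over 4 log2 on at least 4 arrays, which 23905 probe sets met and 21132 did not. All 35 measured members matched a current mouse gene by Entrez identifier, and 0 symbols changed. The test was limma 3.58.1 in R 4.3.3, a one-way fit of 4 groups over all 16 arrays (12 residual and 2.63 prior degrees of freedom), adjusted by Benjamini-Hochberg across the 23905 probe sets and a threshold of 0.05. Differences are given ± the fit's standard error, with 95% intervals that are not adjusted. Exact permutation tests are two-sided over 70 assignments, with a smallest p of 0.0286, and are not adjusted for their number. The script was tested on simulated data, with 200 of the 23905 probe sets changed in each run. The unchanged probe sets had a difference of 0 by construction, so their 0 wrong calls say nothing about false calls.

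The members, the wider list and the marker lists were chosen with earlier results of these data known, so lists are described by counts and medians without a test. Values were given for every called member, for Gad1, Gad2, Slc32a1, Pvalb, Sst, Vip, Cck and Npy, for the 4 smallest p in each direction, for members without overlap and for the 4 largest and smallest standard deviations; other members were named with values for their role, and the array counts and the other probe sets were chosen after their values were seen. A marker score is the median deviation of the list's genes from their mean over 16 arrays. Deviations of equally numbered arrays of different groups correlated between -0.27 and 0.24, so replicate numbers were not taken as pairs. Promoters came from RefSeq (GRCm38.p6). Alternatives covered the filter, the probe set that stands for a gene, the arrays in the fit, array scaling and weights, the variance prior, the replicate number, the label of Random antisense 1 and the leaving out of arrays.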

Additional observations from a re-analysis of the deposited data

Results flagged for a closer look

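Within groups of 4 arrays, the gap of the highest or lowest array to its neighbour exceeded Dixon's 95% critical value, as a share of the group's range, in 15 of 140 tests of a member in a group, where chance gives about 1 in 20. Control 4 was the low array for Gad2 (9.72 log2), Slc32a1 (8.42), Gabra3 (9.91), Gabrd (7.71), Nlgn2 (8.80), Cck (11.70) and Aldh5a1 (8.58). AβPP antisense 2 was high for Gad2 (10.92) and low for Gabra4 (10.33). Random antisense 4 was low for Gabra5 (10.23), Gphn (10.10) and Cnr1 (11.79) and high for Gabrd (9.70). In SAMP8, array 1 was low for Gabra2 (11.05, in a group that spans 11.05 to 11.08) and array 2 for Gabrb1 (11.35).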

How the results depend on the processing

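Over 27 alternative settings no member was called, with 1 exception: with the mean of a gene's probe sets, 1 member (Gabra3) was called in AβPP antisense minus SAMP8 and 1 in the F test. Of 36 named member differences, the lowest adjusted p over all settings was 0.0549. With the replicate number as a block, the members' median differences were 0.14, -0.10, 0.01 and -0.10, with 0 members called, and 71, 17, 0 and 63 probe sets were called; the block changed no member's call, and the numbers were not shown to pair the mice. The other probe sets called against SAMP8 numbered 1 under the block, 6 without Control 4 and AβPP antisense 4, and 0 with no filter. The members' median in SAMP8 minus Control ran from -0.08 (without Control 4) to 0.22 (without Control 1) over single arrays left out, and was -0.08 without both arrays that stand apart; positive members fell to 12 of 35 without Control 4, members outside the named ones included. Among the 36 named differences, sign changes in SAMP8 minus Control came from values near 0, which over single arrays left out ran from -0.22 to 0.07 for Pvalb, -0.17 to 0.05 for Gad2, -0.07 to 0.02 for Erbb4 and -0.21 to 0.11 for Abat: Erbb4 was 0.01 with array weights, 0.21 with Random antisense 1 counted as SAMP8, and 0.02 without Control 2 or SAMP8 4; Gad2 was 0.02 with that relabelling, and 0.01 to 0.05 without Control 1, 2 or 3; Pvalb was 0.05 and 0.07 without Control 1 and 3; Abat was 0.11, 0.07 and 0.01 without Control 1, Control 3 and SAMP8 2. Gabrg1 in AβPP antisense minus Random antisense was -0.05 with the mean of its probe sets.

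Counts of all probe sets called moved more. Leaving out single arrays gave 54 to 115 for SAMP8 minus Control, 11 to 896 for AβPP antisense minus Random antisense and 16 to 1286 for AβPP antisense minus SAMP8, the highest 2 without AβPP antisense 3. AβPP antisense minus SAMP8 gave 31 with no filter, 5 with the 8 arrays compared alone and 401 without Control 4 and AβPP antisense 4. AβPP antisense minus Random antisense gave 13 with the stricter filter, 0 with 8 arrays, 35 with array weights, 13 with Random antisense 1 counted as SAMP8 and 199 without both arrays. SAMP8 minus Control gave 37 with 8 arrays and 295 with array weights, and Random antisense minus SAMP8 gave 19 with array weights. The cause of these shifts was not tested, beyond the fewer probe sets or arrays that some settings hold. Among the brightest probe sets, signal near background limits Erbb4, Lhx6 and Dlx1 most. Of the 7 other probe sets described above, those of Gabra3, Gad2 and Slc12a5 fell under 4 log2 on AβPP antisense 4, to 1.89, 2.81 and 3.94.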
